A study of Mus musculus with 9 samples.

Results

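This account follows 10 genes of cytotoxic lymphocytes and natural killer (NK) cells: Gzma, Gzmb, Prf1, Nkg7, Klrd1, Klrk1, Klrb1c, Ncr1, Ifng and Eomes. They were chosen by symbol, each matched 1 row, and all 10 are among the 45535 rows that carry a gene symbol. The RNA was labelled as coming from CD103+ dendritic cells (DCs) of the lungs of C57/BL6j mice, all given bleomycin, a drug that causes lung fibrosis in mice, for 7 days. Cells were freed with collagenase and selected on magnetic beads for CD103, the integrin chain encoded by Itgae. In 5 samples RNA was taken directly (before culture) and in 4 samples after 18 h in RPMI medium with serum and antibiotics (after culture). The labels give no untreated mice, no sort purity and no number of mice per sample, so p-values measure the spread between these samples, which may be technical. The extraction label names total lung RNA, whereas the cell type label names the selected cells.

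Cytotoxic lymphocytes kill target cells by releasing granules. Perforin, encoded by Prf1, opens membranes, and granzymes, serine proteases carried in the same granules, enter the target and start its death. NK cells do this under the control of activating and inhibitory surface receptors, many of them lectin-like proteins encoded in one gene cluster, and they secrete interferon gamma. The same granule genes, and several of the receptors, are also used by CD8 T cells and other innate lymphocytes, so these genes mark a function more than a single cell type. CD103 itself is carried by type 1 conventional dendritic cells (cDC1) and by subsets of T cells and innate lymphocytes.

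Depth in rows with a symbol ran from 14.7 to 35.3 M reads per sample. A normalized count is a read count divided by 1 factor per sample, so that a single read equals 0.758 to 1.79 on this scale, depending on the sample. All 8 cDC1 markers, Itgae among them, were read in every sample, 7 of them lower and 1 higher after culture, with a summed level of 111774 to 137940 before and 16128 to 17485 after culture. The members summed to 4257 to 6787 before and 1886 to 2849 after culture, below the cDC1 sum in every sample. The mean sum fell 7.46-fold for the cDC1 markers and 2.08-fold for the members. Genes differ in length, so these sums are not shares of the RNA. Replicate 4 before culture stood apart, since it held the highest value of its group for all 10 members. Its level was 1.16 (Klrk1) to 2.40 (Ncr1) times the mean of the other 4 samples. In RNA from a mixed preparation, fewer cells of a type and less RNA per cell cannot be told apart.

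After culture 9 of the 10 genes were lower, 0 were higher, and Klrd1 did not pass the threshold (limma adjusted p of 0.05 over all 18202 genes tested). By the same rule 68.8% of all tested genes passed in either direction, with 34.6% lower and 34.2% higher. The groups did not overlap, with every sample after culture below every sample before, for 8 of the 10 members and for 28.6% of all tested genes (57.3% counting both directions). A log2 fold change below −2 with a passing p was found for 6 members and for 8.19% of all tested genes, and one below −1 for 8 members and 18.6%. The median log2 fold change of the members was −2.24, against 0.0065 over all tested genes. By log2 fold change Gzma, Ifng and Gzmb had the largest changes, Prf1, Ncr1, Klrb1c, Nkg7 and Eomes lay between, and Klrk1 and Klrd1 had the smallest. Without replicate 4 before culture, 9 members were again lower and 0 higher, with groups that did not overlap for 8.

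**Figure D1:**
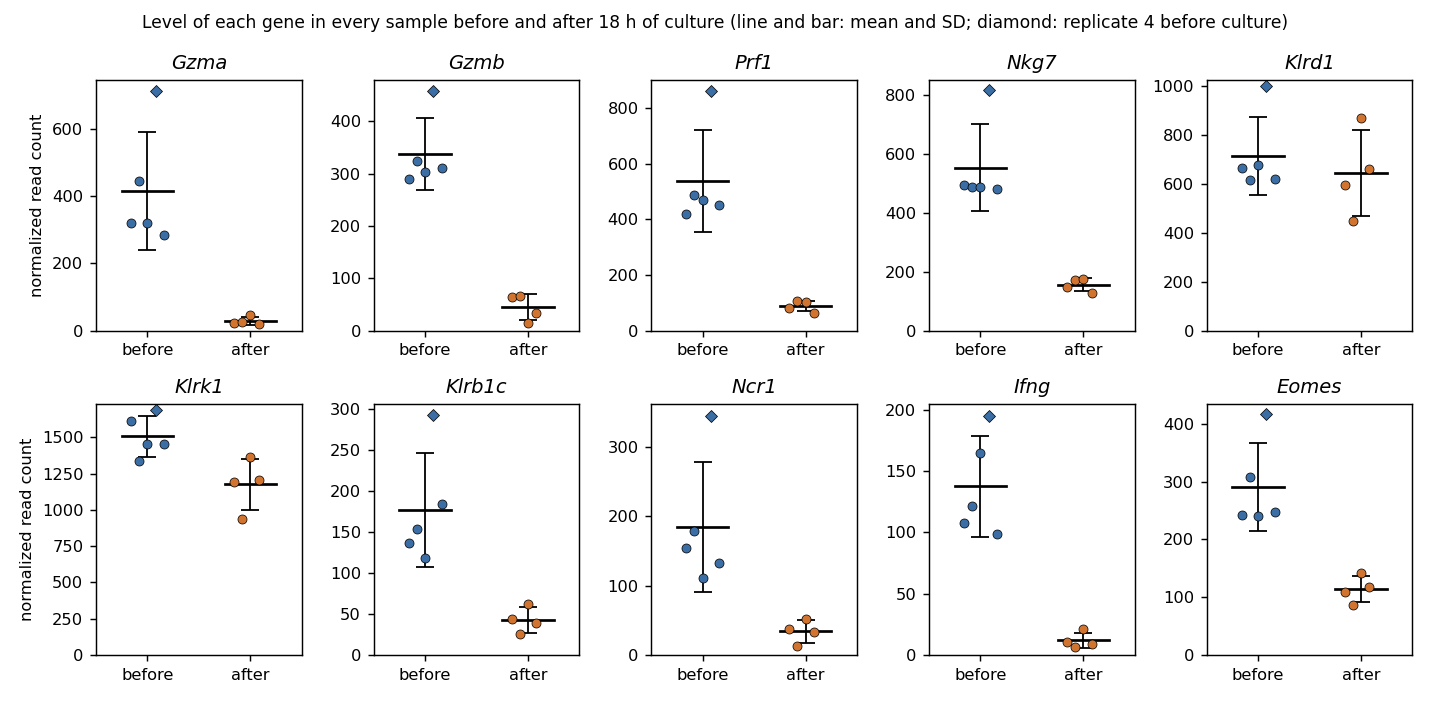
Normalized read count of each of the 10 genes (vertical axes, linear and starting at 0) in the 5 samples before and the 4 samples after culture; points are samples, black lines and bars are the mean and SD, and the diamond is replicate 4 before culture. For 8 genes all samples after culture lie below all samples before, while for Klrd1 and Klrk1 the groups overlap.

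Sequences just before the transcription start were examined because the members moved together in most cases while Klrk1 and Klrd1 moved little. RefSeq windows (GRCm38.p6) of 250 bases before the start were matched for 9 of the 10 members by symbol (not Klrd1). Short motifs were searched on both strands, namely TGTGGTT of the Runx family, AGGTGTG of T-box factors and TGACTCA of AP-1. TGTGGTT occurred in the windows of 4 members (Gzma, Gzmb, Klrk1 and Ncr1) and in 4.41% of the 32536 distinct windows of all genes. AGGTGTG occurred in 1 member (Nkg7) and in 5.12% of all windows, and TGACTCA in 1 member (Gzmb) and in 4.45%. The matches do not overlap each other. A member is counted once if any of its windows holds a match, whereas the share of all genes is counted over distinct windows. The windows of the 4 members with the Runx letters are shown 5′ to 3′ because they include both the most reduced member and Klrk1, with matches in capitals (AACCACA and TGAGTCA are matches on the other strand).
Gzma (chr13:113100982-113101231, minus strand): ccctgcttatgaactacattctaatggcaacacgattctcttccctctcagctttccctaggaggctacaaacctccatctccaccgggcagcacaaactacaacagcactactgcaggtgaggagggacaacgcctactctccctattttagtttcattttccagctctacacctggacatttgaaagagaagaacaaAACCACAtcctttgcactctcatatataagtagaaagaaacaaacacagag
Gzmb (chr14:56262335-56262584, minus strand): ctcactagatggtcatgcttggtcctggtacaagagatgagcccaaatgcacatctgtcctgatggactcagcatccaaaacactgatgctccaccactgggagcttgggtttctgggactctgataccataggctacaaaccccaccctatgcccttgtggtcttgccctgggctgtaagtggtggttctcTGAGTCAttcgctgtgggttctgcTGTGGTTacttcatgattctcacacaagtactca
Ncr1 (chr7:4337465-4337714, plus strand): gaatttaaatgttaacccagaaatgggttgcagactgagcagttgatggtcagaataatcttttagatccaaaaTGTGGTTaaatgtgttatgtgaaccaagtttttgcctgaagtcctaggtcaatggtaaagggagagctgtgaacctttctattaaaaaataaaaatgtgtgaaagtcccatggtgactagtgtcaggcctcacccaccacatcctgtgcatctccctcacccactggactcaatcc
Klrk1 (chr6:129623865-129624114, minus strand): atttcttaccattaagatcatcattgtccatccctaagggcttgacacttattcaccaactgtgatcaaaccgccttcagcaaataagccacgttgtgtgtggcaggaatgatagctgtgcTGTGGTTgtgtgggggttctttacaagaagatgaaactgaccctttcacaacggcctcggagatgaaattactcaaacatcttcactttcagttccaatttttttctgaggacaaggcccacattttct
The Runx letters begin 51 bases before the start in Gzma, 34 in Gzmb, 176 in Ncr1 (185 from another listed start) and 129 in Klrk1, and the AP-1 letters of Gzmb begin 58 bases before it. A match is a description of these letters and not a binding site.

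The 4 members that encode proteins of the cytotoxic granule all fell after culture without overlap between the groups, as did 28.6% of all tested genes. Gzma (chr13:113093825-113100981, GRCm38) encodes granzyme A, a protease that cuts after basic residues. Its normalized count was 319, 444, 319.7, 711 and 283 in replicates 1 to 5 before culture and 22.1, 25.02, 46.4 and 20.5 in replicates 1 to 4 after culture. Replicate 4 before culture was far above the other samples, yet the lowest sample before culture was still well above the highest after culture. The group means were 415 ± 176 before and 28.5 ± 12.1 after culture (SD over 5 and 4 samples). Gzma thus fell 14.6-fold (log2 fold change −3.81, SE 0.285, limma adjusted p = 5.92e-08). Without replicate 4 before culture the fall was 12.0-fold (log2 fold change −3.59).

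Gzmb (chr14:56258838-56262260) encodes granzyme B, which cuts after aspartate and activates caspases in the target. It was read at 289, 324, 303, 457 and 311 before culture and at 63.6, 66.0, 13.6 and 34.2 after culture. The samples before culture were close together apart from replicate 4, whereas those after culture were spread, with replicate 3 lowest. Gzmb fell 7.60-fold (337 ± 68.3 against 44.4 ± 25.1; log2 fold change −3.11, SE 0.361, limma adjusted p = 4.66e-06). Replicate 3 after culture was the lowest for Gzmb only, and it was the highest of its group for 8 of the other 9 members. Prf1 (chr10:61297833-61304680), the gene of perforin, was read at 421, 489, 470.1, 863 and 451 before and 82.1, 105, 102 and 63.9 after culture. Each sample after culture was far below each sample before. The fall was 6.11-fold (539 ± 183 against 88.1 ± 19.0; log2 fold change −2.57, SE 0.208, limma adjusted p = 1.31e-07). Nkg7 (chr7:43437073-43438249) encodes a membrane protein of cytotoxic granules that takes part in their release. Its values were 493, 485, 487, 816 and 479.7 before and 148, 171, 176 and 128 after culture. Apart from replicate 4, the samples before culture lay within a narrow band. Nkg7 fell 3.55-fold (552 ± 148 against 156 ± 21.8; log2 fold change −1.80, SE 0.163, limma adjusted p = 4.25e-07), or 3.13-fold without replicate 4 before culture.

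Ifng (chr10:118441046-118445892) encodes interferon gamma, the cytokine by which NK cells and T cells activate macrophages and dendritic cells. It was read at 108, 121, 165, 195 and 98.4 before culture and at 10.6, 6.82, 20.9 and 9.12 after culture. After culture these values rest on 9 to 23 reads per sample, above the floor of 3 reads but with wide counting error. The group means were 137 ± 41.1 before and 11.9 ± 6.24 after culture, an 11.6-fold fall (log2 fold change −3.49, SE 0.305, limma adjusted p = 2.85e-07). In GENCODE M21, 13.5% of the 50-base windows of the longest Ifng transcript also occur in Gm49751, an overlapping gene model on the same strand. Ifng was the member with the second largest change, after Gzma.

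Among the receptors, Ncr1 and Klrb1c fell, Klrk1 fell slightly and Klrd1 did not pass the threshold. Ncr1 (chr7:4337724-4345164) encodes NKp46, an activating receptor used to define mouse NK cells and related innate lymphocytes. It was read at 154, 179, 111, 346 and 132 before culture and 37.1, 12.9, 51.9 and 33.5 after culture. Replicate 4 was the highest before culture and replicate 2 the lowest after it. Ncr1 fell 5.46-fold (185 ± 93.6 against 33.8 ± 16.1; log2 fold change −2.45, SE 0.377, limma adjusted p = 6.34e-05), or 4.27-fold without replicate 4 before culture. Klrb1c (chr6:128778485-128789215) encodes NK1.1, the antigen by which NK cells of this mouse strain are usually stained. It was read at 137, 153, 118, 293 and 184 before and 44.2, 25.02, 62.8 and 38.8 after culture. The groups did not overlap, and the fall was 4.15-fold (177 ± 69.2 against 42.7 ± 15.6; log2 fold change −2.02, SE 0.285, limma adjusted p = 2.78e-05). Of the Klrb1c windows, 18.1% are shared with other genes, most of all Gm44511, whose own row held 0 reads in all 9 samples.

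Klrk1 (chr6:129610323-129623864) encodes NKG2D, an activating receptor of NK cells, CD8 T cells and some gamma delta T cells. It was the member with the highest normalized counts, 1611, 1334, 1453, 1692 and 1452 before and 1193, 939, 1364 and 1206 after culture. Replicate 3 after culture was above the lowest sample before culture, so the groups overlapped. The fall was 1.28-fold (1508 ± 142 against 1176 ± 176; log2 fold change −0.37, SE 0.107, limma adjusted p = 0.00767). The window before its start holds the same Runx letters as that of Gzma. Klrd1 (chr6:129591782-129598775) encodes CD94, which pairs with NKG2 proteins to form receptors on NK cells and T cells. It was read at 663, 614, 675, 998 and 618 before culture and 595, 449, 869.8 and 658 after culture, and the groups overlapped widely. The difference was −0.16 on the log2 scale with a 95% confidence interval from −0.55 to 0.22 (713 ± 161 against 643 ± 175; limma adjusted p = 0.432). That interval does not reach the log2 fold changes of the 8 members whose groups did not overlap.

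Eomes (chr9:118478212-118486132) encodes eomesodermin, a T-box transcription factor of mature NK cells and of CD8 T cells. It was read at 242, 308, 240.1, 418 and 247 before culture and at 109.5, 87.2, 142 and 117 after culture, without overlap. Eomes fell 2.55-fold (291 ± 76.3 against 114 ± 22.6; log2 fold change −1.33, SE 0.186, limma adjusted p = 2.61e-05), the smallest change among the 8 members whose groups did not overlap. Gm33460 overlaps Eomes on the other strand and was read at 0 to 10.0 before and 0.883 to 3.64 after culture. Whether the counting used strand is not given in the sources used here. For single genes, exact two-sided permutation tests of the group means gave p = 0.0159 for each of the 8 members whose groups did not overlap, the smallest p that 5 against 4 samples allow. The same exact test gave p = 0.0317 for Klrk1 and p = 0.571 for Klrd1. Without replicate 4 before culture the log2 fold change was −2.99 for Gzmb, −2.39 for Prf1, −3.35 for Ifng, −1.82 for Klrb1c and −1.19 for Eomes. In that fit Klrk1 was at −0.32 (limma adjusted p = 0.0158) and Klrd1 at −0.04 (limma adjusted p = 0.842).

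**Figure D2:**
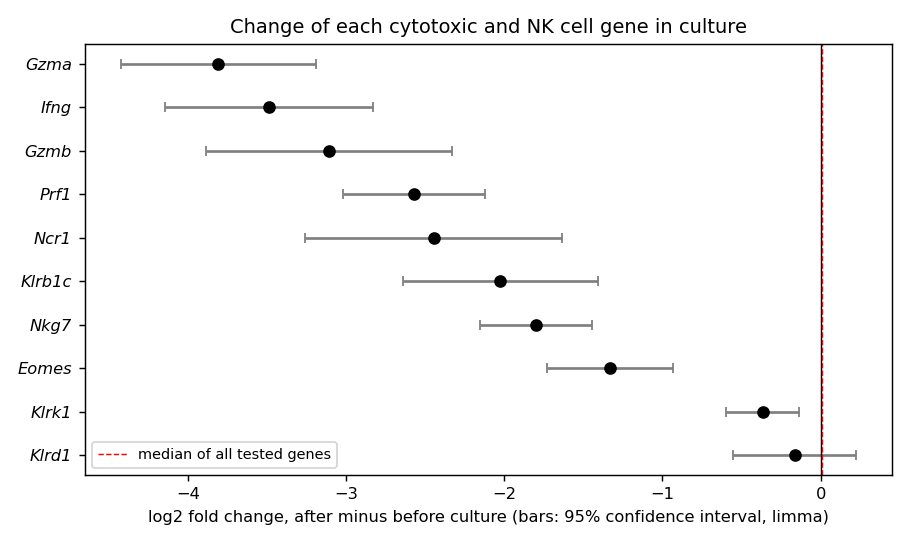
Log2 fold change of each gene after minus before culture (horizontal axis) with its 95% confidence interval from limma; the dashed line is the median of all tested genes. The intervals run from Gzma (−3.81) to Klrd1 (−0.16), and only that of Klrd1 includes 0.

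Levels can be set side by side between genes only per length, here as normalized counts per kilobase of all annotated exons of a gene. Before culture Nkg7 was highest at 604 ± 161 per kilobase (SD, n = 5), followed by Klrd1 at 557 ± 126 and Gzma at 413 ± 175. Gzmb (235 ± 47.5), Klrk1 (210.0 ± 19.8) and Prf1 (208 ± 70.8) formed the middle. Ncr1 (119.9 ± 60.8), Ifng (106 ± 31.7), Eomes (70.0 ± 18.4) and Klrb1c (59.8 ± 23.4) were lowest. The range of each gene over the 5 samples overlapped with that of the next in this order. These ranges pool the samples, and neighbours were not compared within the same sample. After culture the order was different at the top. Klrd1 led at 502 ± 136 per kilobase (SD, n = 4), without overlap with the next gene. Nkg7 (170.2 ± 23.9) and Klrk1 (164 ± 24.5) followed and overlapped with each other, and no sample of either reached down to Prf1 (34.1 ± 7.37). From Prf1 down to Ifng (9.16 ± 4.82) neighbours overlapped again. The annotated exons of Klrk1 span 7183 bases, more than those of any other member, so its level per kilobase depends most on which transcripts are present.

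Levels relative to Ncr1 within the same sample show how unequally the members changed. These are log2 ratios, given as a description with no test, because the members were chosen with results known. Of the 9 other members, 5 had ratios that did not overlap between the groups, also without replicate 4 before culture. The share of all tested genes with such ratios was not computed. Ncr1 itself had a log2 fold change of −2.45, so a gene that does not change rises against it. The ratio of Gzma to Ncr1 ran from 1.04 to 1.52 before and from −0.72 to 0.91 after culture, and that of Ifng from −0.82 to 0.57 before and from −1.77 to −0.83 after it. Both were thus lower against Ncr1 after culture, Ifng only just without overlap (lowest −0.823 before, highest −0.828 after culture). The ratio of Klrd1 ran from 1.53 to 2.59 before and from 3.97 to 5.02 after culture. That of Klrk1 ran from 2.29 to 3.70 before and from 4.69 to 6.08 after it, and that of Eomes from 0.27 to 1.11 before and from 1.44 to 2.67 after it. These 3 genes were higher against Ncr1 after culture, although none of them rose in normalized count. Ratios of Prf1, Nkg7, Klrb1c and Gzmb overlapped between the groups, and Gzmb was the most variable after culture (−1.85 to 2.27). The high values for Prf1, Nkg7 and Gzmb came from replicate 2 after culture, in which Ncr1 was read at only 12.9.

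**Figure D3:**
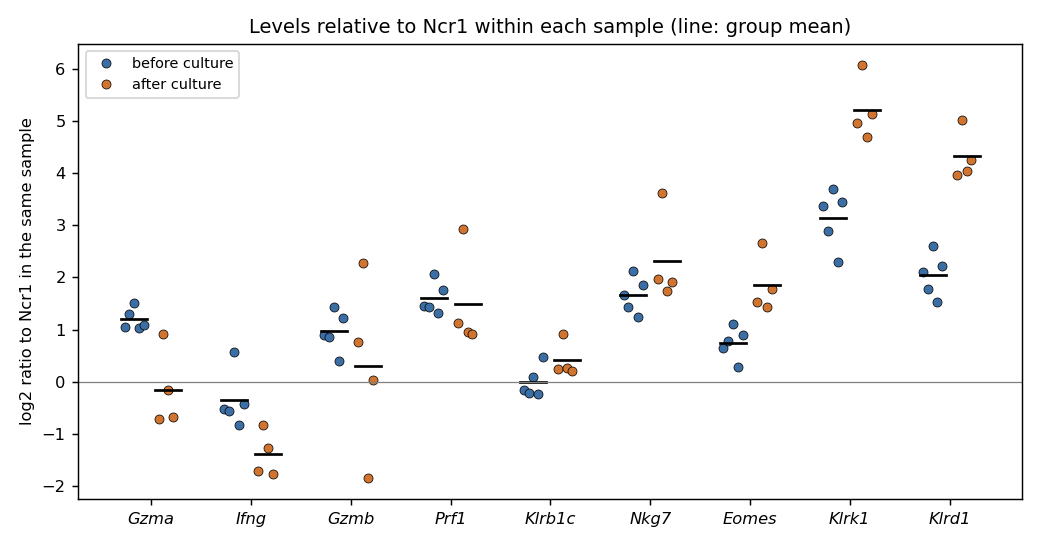
Log2 ratio of each member to Ncr1 within the same sample (vertical axis, pseudocount 1), with 1 point per sample and a line at the group mean. Gzma and Ifng sit lower after culture, and Eomes, Klrk1 and Klrd1 sit higher, without overlap between the groups.

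Within the groups most members were high or low in the same samples. After each group's mean was subtracted from log2(normalized count + 1), 38 of the 45 pairs of members had a positive correlation over the 9 samples, with a median r of 0.65. These points share their libraries, and 1 sample before culture was highest for all members, so r is a description only. Without that sample 28 pairs were positive and the median r was 0.48. Prf1 and Nkg7 were the closest pair (r = 0.97, and 0.94 without that sample), and each was the nearest of all 18202 tested genes to the other. Ncr1 followed Eomes (0.93) and Klrb1c (0.92). Gzmb was the exception over all 9 samples, with correlations from −0.55 with Ifng to 0.18 with Prf1. The 7 pairs with a negative r all held Gzmb. That no other pair was negative depends on replicate 4 before culture. Without it 17 pairs were negative, all 9 with Gzmb and 8 others, and the lowest r was −0.91 (Gzmb and Klrd1). Replicate 3 after culture was the lowest of its group for Gzmb and the highest for 8 other members. The 5 genes nearest to Klrd1 were Cd96, Crebl2, Gm28466, Zfp280d and Sh2d1a (r = 0.98 each). Cd96 is a receptor of T and NK cells, and Sh2d1a encodes the adaptor SAP of the same cells. Klrd1, Cd96 and Sh2d1a were all highest before culture in replicate 4. The nearest gene of Ncr1 was Syne2 (0.99). That of Klrk1 was Rad51d (0.98), followed by Btla (0.97), an inhibitory receptor of lymphocytes. The nearest genes were not computed again without replicate 4 before culture. Of the 50 nearest genes over all members, 2 were members and 2 were on the lists of other NK genes.

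The other genes of the pathway were taken from 12 lists arranged by role. Of 121 such genes, 108 passed the filter on low values. Of these, 44 were lower (40.7%) and 34 higher (31.5%) after culture, against 34.6% and 34.2% of all tested genes. Their median log2 fold change was −0.09, against 0.0065 over all tested genes. Without replicate 4 before culture 43 were lower and 35 higher. As a whole these genes thus moved in both directions. The lists differed from each other in direction, which was not tested. Counts for single lists stand beside the 68.8% of all tested genes that passed in either direction.

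**Figure D4:**
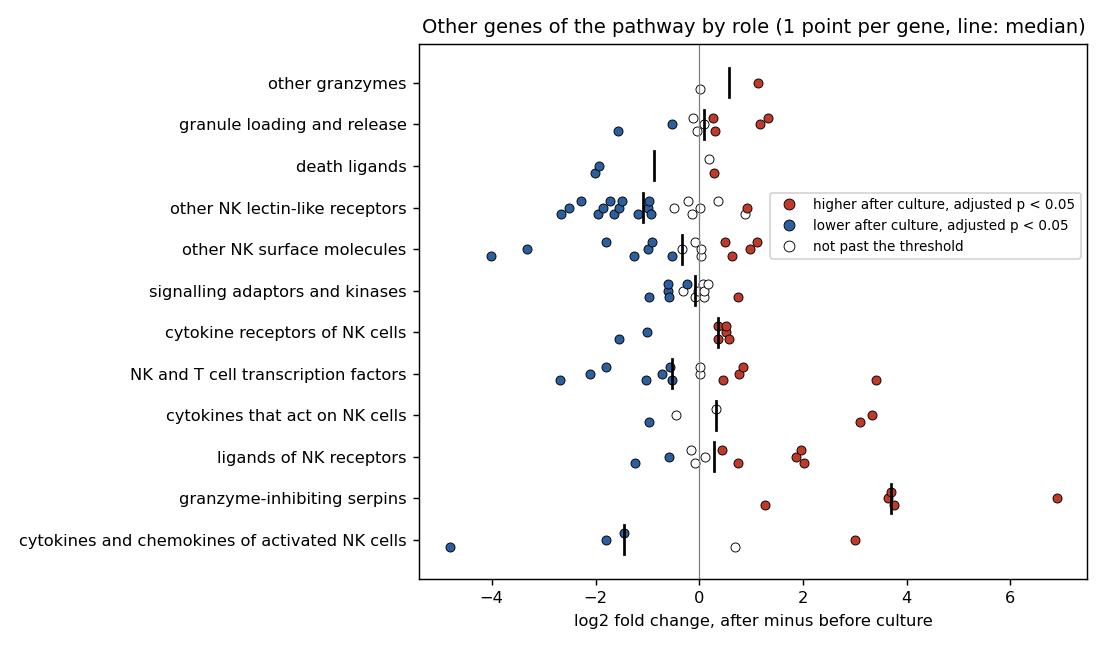
Log2 fold change after minus before culture (horizontal axis) of the tested genes on each list of other cytotoxic and NK cell genes, with 1 point per gene coloured by call and a line at the list median. All 5 serpins lie to the right of 0, and 13 of the 20 other lectin-like receptors are lower after culture.

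Of the 8 other granzymes only 2 were read highly enough to be tested, and 1 of them rose. Gzmk, a granzyme of memory T cells and some NK cells, rose 2.33-fold (18.0 ± 3.22 against 41.8 ± 14.2; log2 fold change 1.14, SE 0.263, limma adjusted p = 0.00171). Gzmm had values of 46.4 ± 5.26 before and 49.4 ± 20.6 after culture and did not pass (limma adjusted p = 0.961). Gzmc was under the filter and not tested, with 12.5 ± 3.28 before and 1.58 ± 2.15 after culture. Gzmd, Gzme, Gzmg and Gzmn held 0 reads in all samples, which allows up to 3 reads in each. Of the 9 tested genes for granule loading and release, 4 were higher and 2 lower. Srgn, the proteoglycan core that packs granules in many blood cells, fell 2.98-fold (15507 ± 2131 against 5209 ± 250.1). Ctsc, the protease that activates progranzymes, fell 1.41-fold with overlapping groups (13296 ± 839.6 against 9449.9 ± 2129). Stx11, a syntaxin needed for granule fusion, rose 2.48-fold (954 ± 133 against 2371 ± 179.8), and Lamp1, a membrane protein of lysosomes and granules, rose 2.24-fold (10463 ± 2028 against 23394 ± 4275). These genes are also expressed by dendritic cells. Of the 4 death ligand genes, Fasl fell 4.17-fold (209 ± 62.7 against 50.2 ± 9.39) and Tnfsf10, which encodes TRAIL, 3.95-fold (1038 ± 320.5 against 263 ± 37.5), while Ltb rose 1.22-fold with overlapping groups (887 ± 103 against 1081 ± 109).

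Of the 20 tested lectin-like receptor genes beside the members, 13 were lower, 1 was higher and 6 did not pass, with a median of −1.09. Klrb1b, an inhibitory receptor of the NK1.1 family, fell 5.72-fold (4019.9 ± 742 against 703 ± 70.8), and 29.0% of its windows are shared with other genes. Klra2 fell 3.66-fold (477 ± 58.6 against 130.3 ± 14.5) and Klrg1, a marker of mature NK cells and effector T cells, 1.94-fold (137 ± 13.8 against 70.7 ± 16.5). Klri1 was the gene that rose (1.87-fold, 199 ± 50.1 against 371 ± 57.5). Klra genes share sequence with each other (up to 39.8% of windows, in Klra10), so the split of reads between them is uncertain. The partners of CD94, Klrc1 (143 ± 28.0 against 184 ± 34.3) and Klrc2 (103 ± 50.8 against 89.6 ± 29.4), did not pass (limma adjusted p = 0.0591 and 0.712). These 2 genes were chosen after their values were seen, because their products pair with CD94. Of the Klrc1 windows, 40.3% are shared, most of all with Klrc2.

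Among 15 other NK surface molecules, 7 were lower and 4 higher. S1pr5, the receptor that lets mature NK cells leave tissue for blood, fell 16.2-fold (204 ± 17.3 against 12.6 ± 5.65), Cd244a, the receptor 2B4, 10.0-fold (1948 ± 161 against 195 ± 24.6) and Cx3cr1, a chemokine receptor also carried by macrophages, 3.51-fold (2525 ± 500.0 against 719 ± 98.8). Cd96 (1.99-fold, 301 ± 60.1 against 599 ± 134) and Cd160 (2.25-fold, 69.4 ± 5.79 against 156 ± 46.9) rose. The 13 signalling adaptors and kinases had 5 lower, 1 higher and 7 not past the threshold. Sh2d2a, an adaptor of activated T and NK cells, fell 1.96-fold (2080.3 ± 156 against 1063 ± 135) and Vav1, an exchange factor downstream of many immune receptors, 1.52-fold (3849.7 ± 353 against 2533 ± 379). Zap70, the kinase of T cell and NK receptors, fell 1.49-fold (577 ± 28.1 against 387 ± 63.6), and Sh2d1a rose 1.68-fold with overlapping groups (49.2 ± 14.3 against 82.8 ± 23.3).

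Of the 13 transcription factors, 7 were lower and 4 higher. Tbx21, which encodes T-bet, the T-box partner of Eomes in NK cells, fell 6.54-fold (427 ± 35.2 against 65.2 ± 7.73; log2 fold change −2.69, SE 0.121, limma adjusted p = 4.06e-10). Runx3, a factor of cytotoxic lymphocytes and of dendritic cells, fell 3.52-fold (8366 ± 1307 against 2378 ± 74.9). Stat4, which transmits the interleukin 12 signal, was higher, with a log2 fold change of 3.40, although Gm28177 and other genes hold copies of 28.6% of its windows. Id2 was higher as well (0.77). All 7 cytokine receptor genes passed, 5 of them higher, and the groups did not overlap for 4 of the 7. Il2rb, the chain that NK cells need to respond to interleukin 15, fell 2.94-fold (4275 ± 543 against 1453 ± 55.6) and Il18rap 2.02-fold (1211 ± 189.8 against 599 ± 70.2). Il2rg rose 1.499-fold (3611 ± 279 against 5414 ± 504), with 42.0% of its windows shared.

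Of 5 tested cytokines that act on NK cells, 2 were higher, 1 lower and 2 did not pass. Il15, the survival cytokine of NK cells, rose 8.70-fold (168 ± 18.7 against 1464 ± 271; log2 fold change 3.10, SE 0.131, limma adjusted p = 2.25e-10), and Il15ra, the receptor chain that presents it to them, 10.2-fold (270.2 ± 15.01 against 2758 ± 606). Il18 fell 1.92-fold with overlapping groups (374 ± 90.1 against 194 ± 65.9), and Il2, Il21 and Ifnb1 were under the filter. The 2 subunits of interleukin 12, Il12a (17.5 ± 4.02 against 12.7 ± 4.38, limma adjusted p = 0.199) and Il12b (2948 ± 672 against 3719 ± 968, limma adjusted p = 0.149), did not pass, and they are named because they complete the list. Of 10 tested ligands of NK receptors, 5 were higher and 2 lower. Clec2d, a ligand of the NK1.1 receptor family, rose 4.08-fold (2354 ± 229.7 against 9593 ± 924) and Clec2i 3.93-fold (391 ± 67.9 against 1537 ± 359). Nectin2 fell 2.39-fold (269 ± 45.1 against 113 ± 12.6) and Pvr 1.49-fold (4781 ± 320.3 against 3216 ± 325). All 5 serpin genes rose, with a median of 3.70. Serpinb9, the inhibitor of granzyme B, went from 1736 ± 220.3 to 23273 ± 1891 (13.4-fold higher). Its relative Serpinb9b rose 118-fold (64.2 ± 19.3 against 7574 ± 562) and Serpinb6b 12.9-fold (637 ± 90.6 against 8233 ± 567). Which cells carried these transcripts was not tested. Of 5 cytokine and chemokine genes of activated NK cells, 3 were lower and 1 higher. Ccl3 fell 3.29-fold (2257 ± 426 against 687 ± 303). Ccl4 had a log2 fold change of −4.81 and Ccl5 of 3.01, in opposite directions.

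Markers of the cell types that could carry these genes were set beside the members, as summed normalized counts. The 6 NK cell markers, which include Ncr1, Klrb1c and Eomes, were all read, and 5 of them were lower. Their sum ran from 655 to 1491 before and 172 to 429 after culture, without overlap. Ncr1, Klrb1c and Eomes are members, so this sum in part repeats their values. The rest are named because they complete the list. Klra4 fell without overlap (80.8 ± 47.2 against 17.4 ± 13.2) and Klra8 with overlapping groups (83.0 ± 42.6 against 23.6 ± 20.4). Klre1 did not pass (67.9 ± 31.9 against 48.5 ± 24.4, limma adjusted p = 0.205). The 12 T cell markers were all read as well, with sums of 8132 to 9361 before and 6922 to 9164 after culture, which overlapped. Of these, 2 were higher, 4 lower and 6 did not pass. Cd3e (1383 ± 95.2 against 1552 ± 193) and Cd8a (914 ± 81.1 against 869 ± 125) did not pass, and Trac fell 1.35-fold (1149 ± 129 against 854 ± 61.0). Sums of gamma delta T cell markers (949 to 1372 before, 903 to 1313 after) and B cell markers (2389.7 to 4459.8 before, 2435 to 3349.6 after) overlapped between the groups too. Of the 5 gamma delta T cell markers, however, 4 were higher and 1 lower, so their sum joins opposite changes. Sums for type 2 innate lymphoid cells (3169 to 3759 before, 3578 to 4447 after) also overlapped. Of these 6 markers, 1 was higher, 3 were lower and 2 did not pass, so this sum joins opposite changes as well. Neutrophil markers (8483 to 15975 before, 779.8 to 1630.0 after), plasmacytoid dendritic cell markers (3741 to 4430.1 before, 1753 to 2111 after) and basophil and mast cell markers (705 to 1021 before, 39.7 to 108 after) had lower sums after culture, without overlap. Most of the basophil and mast cell sum came from Gata2, which other blood cells also express. On that list 5 of the 8 markers were below the filter. No marker on these lists was at 0 in all samples. The part of each of these cell types in the change of the members was not tested.

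**Figure D5:**
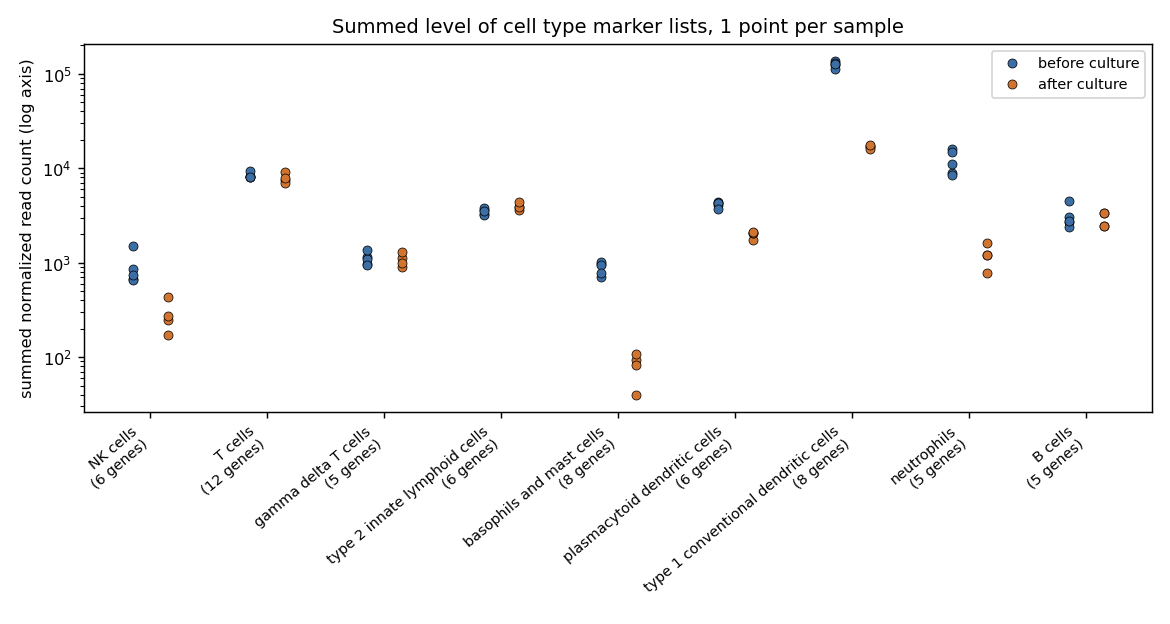
Summed normalized read count (log axis) of the markers of each cell type, with 1 point per sample and the number of genes in each sum in brackets. The sums of NK cell markers, which include Ncr1, Klrb1c and Eomes, are lower after culture without overlap. Those of T cell, gamma delta T cell and B cell markers overlap between the groups, although single genes on these lists changed in both directions.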

How the data were processed

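RNA of 9 samples was measured by sequencing. What the authors deposited is a single table with a signal per gene, namely read counts after normalization. The submitters' processing notes name GRCm38 and DESeq2, and the aligner, counter, annotation, strandedness and filters are not given in the sources used here. All values (100%, tolerance 1e-06) were whole multiples of 1 read in their column, so whole reads were recovered. Columns were matched to samples by library name. Rows without a symbol (3782 of 49317) stayed out of tests and held 3.87 to 10.9% of reads.

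Testing covered the 18202 genes whose normalized count averaged 10 or more. Their log2(value + 1) was modelled by group alone in limma (version 3.58.1, R version 4.3.3), with a mean-variance trend and two-sided tests. P-values were adjusted over all tested genes (Benjamini-Hochberg), with a threshold of 0.05. Log2 fold changes on this scale understate changes of low genes; folds are ratios of group means. Alternatives were pseudocounts, filters, scalings, sample weights, a replicate block, edgeR 4.0.16, DESeq2 1.42.0 and leaving out each sample. Correlations and ratios without replicate 4 before culture were added after seeing the data. Confidence intervals are limma's and rest on the spread between samples, whereas the floor of 3 reads covers counting error only.

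All 10 members are named; from each list of other genes up to 3 with the smallest adjusted p and up to 2 against the list's majority, from each marker list the 3 highest, not all of which are printed; 1 marker, with the sum of its list, is not reported here. Members and lists were chosen with earlier results of these data known. Of the listed genes, Vamp7 was not matched, and Tcrg-C1 and Tcrg-C2 were matched by synonym. Locations, exon lengths and shared 50-base windows come from GENCODE M21 (GRCm38), which may not be the authors' annotation.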

Additional observations from a re-analysis of the deposited data

Results flagged for a closer look

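Single samples far from the rest of their group were looked for in 106 groups of values (53 genes named in the text or eligible to be named, before and after culture), with a criterion that chance meets in about 1 of 20 groups. It was met 14 times, 11 times by replicate 4 before culture. The groups share libraries, so these are not independent. Among the members, Gzmb was at 457, with the nearest other sample at 324 in that replicate. There Prf1 was at 863, with the nearest other sample at 489. In the same sample Nkg7 was at 816, with the nearest other sample at 493, and Klrd1 was at 998, with the nearest other sample at 675. Of the other genes, Klrb1b was at 5331, with the nearest other sample at 3848. In that sample Klri1 was at 285, with the nearest other sample at 197, Cd96 was at 406, with the nearest other sample at 291, and Sh2d1a was at 74.5, with the nearest other sample at 46.0. Likewise Il2rb was at 5235, with the nearest other sample at 4139, and Serpinb9b was at 97.9, with the nearest other sample at 61.9. Vav1 went the other way there, at 3221 against 3977 in the next lowest sample. The other 3 cases were elsewhere. Srgn was highest in replicate 2 after culture (5579 against 5139.9), Il2rg lowest in replicate 3 after culture (4663 against 5588) and Gata3 lowest in replicate 2 before culture (615 against 679). Without replicate 4 before culture, Prf1 (log2 fold change −2.39), Nkg7 (−1.65) and Gzmb (−2.99) stayed past the threshold and Klrd1 (−0.04) stayed short of it.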

How the results depend on the processing

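Under the 12 alternatives with all samples (pseudocounts of 0.5 and 8, no filter, a minimum mean of 50, TMM, upper quartile and quantile scaling, sample weights, edgeR, DESeq2 and blocks by title or library number) and the 9 fits that left out 1 sample, 9 members were lower and 0 higher, and each member kept its direction and its side of the threshold. Klrd1 ran from −0.32 to −0.00493 when a sample was left out (limma adjusted p from 0.0976 to 0.981), Klrk1 from −0.44 to −0.26, Gzmb from −3.37 to −2.64 and Ncr1 from −2.70 to −2.06. Counts over the whole table ran from 9925 (minimum mean of 50, 13551 genes tested) to 14150 (no filter, 31592 tested), and from 11770 to 12668 when a sample was left out. Of the other pathway genes, 36 to 46 were lower and 31 to 37 higher with all samples, and 42 to 47 and 29 to 35 when one was left out. Samples with the same title number did not deviate together (r from −0.213 to 0.0807 over 4 pairs). With that replicate block 11646 genes passed. For the numbers in the library names r ran from 0.0447 to 0.349, and 2 of 4 pairs were over 0.1. Each of the 4 samples after culture correlated best with its own number. The labels do not state which samples belong together, so the main fit used no block. Replicate 4 before and replicate 3 after culture both carry library number 4 (r = 0.349). They held the highest value of their group for 10 and 8 members. With the block by library number 12836 genes passed. In that fit Klrd1 was at −0.21 (limma adjusted p = 0.0912), and the SE of Ncr1 was 0.211, against 0.377 in the main fit. With a pseudocount of 0.5 the ratios to Ncr1 moved by less than their SD in either group. Against Klrb1c every difference in ratio was lower by 0.42, less than the SD pooled over both groups but more than the SD before culture of Gzma, Gzmb, Prf1, Nkg7, Klrd1 and Eomes. Prf1 went from −0.12 to −0.55 and Nkg7 from 0.65 to 0.23, while the groups again did not overlap for Gzma, Ifng, Eomes, Klrk1 and Klrd1. Depth limits Ifng most, at 9 to 23 reads after culture.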

Other observations

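Some lymphocyte genes outside the cytotoxic program were higher after culture. Among markers of gamma delta T cells, 4 of 5 rose. They include Trdc, the delta chain constant region (207 ± 57.3 against 386 ± 59.3, 1.86-fold), and Tcrg-C1, a gamma chain constant region (160.0 ± 28.1 against 378 ± 90.0, 2.36-fold), of whose windows 34.2% are shared, most of all with Tcrg-C3. Sox13, a transcription factor of gamma delta T cells, fell 6.17-fold (599 ± 86.6 against 97.0 ± 6.82). Among markers of type 3 innate lymphoid cells, Il23r, a chain of the interleukin 23 receptor, rose 3.29-fold (132 ± 48.4 against 436 ± 89.2), while Il17a fell 3.91-fold (58.2 ± 15.8 against 14.9 ± 9.07). Among markers of type 2 innate lymphoid cells Rora rose 1.45-fold (1864 ± 180.1 against 2703 ± 307), Gata3 fell 1.64-fold (669 ± 30.5 against 408 ± 49.0) and Il1rl1 did not pass (772 ± 82.3 against 741 ± 92.5, limma adjusted p = 0.624). Markers of plasmacytoid dendritic cells were lower in 3 of 5 tested genes. Siglech fell 32.7-fold (389 ± 46.7 against 11.9 ± 8.67), whereas Ly6d did not pass (219 ± 56.7 against 201 ± 13.8, limma adjusted p = 0.633). Gata2, a factor of basophils and mast cells that other blood cells also express, fell 16.9-fold (815 ± 129 against 48.1 ± 12.7).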
